A study of Mus musculus with 24 samples.

Results

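Livers of male C57BL/6N mice given an ethanol (EtOH) diet for 10 days and then an ethanol binge of 5 g/kg were set against livers of mice pair-fed for 10 days. Each group had 3 samples, and these 6 of the series' 24 samples were taken by their titles. The binge is part of the ethanol group only, so diet and binge cannot be told apart in this comparison. A second contrast used livers of mice on the ethanol diet for 8 weeks plus a 5 g/kg binge (5 samples) and of mice pair-fed for 8 weeks (4 samples). The remaining 9 samples, 5 of 8 weeks of ethanol without a binge and 4 of 8 weeks of ethanol with a 5 g/kg binge given 2 times a week, entered no contrast. They served the shared estimate of the spread, the filter and choice of probes, and the search for co-moving probes. The animals' age, the hours between binge and tissue collection, and whether each sample was a separate animal are not given in the sources used here. The p-values below therefore measure the spread between samples within groups, which may be partly technical. In the main fit this spread was pooled over all 24 samples.

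Ethanol is oxidised in hepatocytes by alcohol dehydrogenases, the cytochrome Cyp2e1 and aldehyde dehydrogenases. A short ethanol diet closed by a single large dose is a mouse model of acute-on-chronic alcoholic liver injury, known for fat accumulation in hepatocytes and for an inflammatory response. Pair feeding gives control animals a food intake matched to that of the ethanol animals.

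RNA from each liver was labelled with Cy5 and hybridised together with a Cy3-labelled commercial mouse reference RNA to an Agilent array. Values are log2 ratios of liver over reference after background correction and within-array loess. A level can be compared between samples but not between genes. The 6 arrays had median Cy5 intensities of 121 to 238, between 72.5% and 84.3% of their probes were well above background in Cy5, and 1.35% to 7.64% of spots were left out for irregular signal. All 6 belong to 1 scan. Replicates 2 of both groups shared a slide, as did replicates 3, and the replicates 1 lay on a slide each.

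Ethanol-plus-binge replicate 1 stood apart from the other ethanol-plus-binge livers. It correlated with them at 0.556 and 0.43 across genes and with the pair-fed livers at 0.328 to 0.446, while the other ethanol-plus-binge livers correlated with each other at 0.678 and with the pair-fed livers at 0.0173 to 0.149. The pair-fed livers correlated among themselves at 0.726 to 0.75. Many of the largest rises below were smaller in this liver. Without it, 10 of the named calls below were lost, those of Abcb11 (adjusted p = 0.054), Chkb (0.069), Foxo1 (0.166), Gstm1 (0.0572), Mid1ip1 (0.0518), Nr1d1 (0.0798), Pparg (0.0796), Ppargc1a (0.0557), Trf (0.102) and Ttr (0.087) in the limma fit.

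Of 15683 genes tested with limma, 1132 (7.22%) differed at a Benjamini-Hochberg adjusted p under 0.05. Of these, 677 (4.32% of those tested) were higher and 455 (2.9%) were lower in ethanol-plus-binge livers. The counts in gene lists for this 10-day comparison are to be read against these shares. With arrays centred on the median in place of loess, 271 were higher and 102 lower. At least 2-fold differences numbered 175 higher and 55 lower. The groups did not overlap for 4146 genes (26.4%). Of 1072 called genes measured on both slides that held an array of each group, 1070 had the same sign on both. This follows largely from the calls themselves, which used the same arrays. For 1112 of the 1132 called genes the groups did not overlap, which fixes the sign on both slides. The Cy3 channel, which carried the same reference on every array, gave 0 called genes in the same limma fit, with 503 of 15683 at an unadjusted p under 0.05 against 3086 for the ratio. The count was 594 with the slide as a block, 439 from the Cy5 signal alone and 1858 with array quality weights. Replicates 1 of both groups lay on slides with no other array, so the slide block, here and below, takes them out of the 10-day difference. That fit rests on replicates 2 and 3, and an effect of the slide and the loss of replicates 1 cannot be told apart in it. Values of Cy5 or Cy3 alone, here and below, were taken after both channels were normalized together. They are therefore not an independent check of a single channel. The number of calls was 556 and 734 without ethanol-plus-binge replicates 2 and 3, and 581 and 702 without pair-fed replicates 1 and 2. In all 6 fits that each left out 1 of the 6 arrays, 382 of the 1132 kept their call, 230 higher and 152 lower. Genes named below were chosen by a rule on size and adjusted p, and further list members were named after their values were seen.

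A part of the 2-fold rises came from probes that moved as 1 set. Tnnt3, a fast muscle troponin, rose by 1.73 ± 0.23 on the log2 scale (SE, n = 3 each, adjusted p = 5.71e-05), and 72 of the 15683 genes (0.459%), Tnnt3 included, followed its probe at a correlation of at least 0.8 over the 18 arrays of the other 4 groups. These 72 held 52 of the 175 genes that were at least 2-fold higher and 0 of the 455 that were lower. The median log2 ratio of those 52 was 0.16, 0.59 and 0.48 in the ethanol-plus-binge livers and -1.17, -1.30 and -1.06 in the pair-fed livers. It ranged from -0.90 to 0.31 on the other 18 arrays. Of the 52, 29 had another probe for the same gene, and by that probe 0 of the 29 rose 2-fold and 28 changed by under 0.5. Among the other 123 genes that were at least 2-fold higher, 48 had another probe, and 20 of those rose 2-fold by it. The set included the genes of olfactory receptors (Olfr411, Olfr938), a tachykinin receptor (Tacr2) and endothelin 2 (Edn2). It was found after the values were seen, and its source was not tested. Tap1 and Slc11a2, named below, belong to it.

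**Figure D1:**
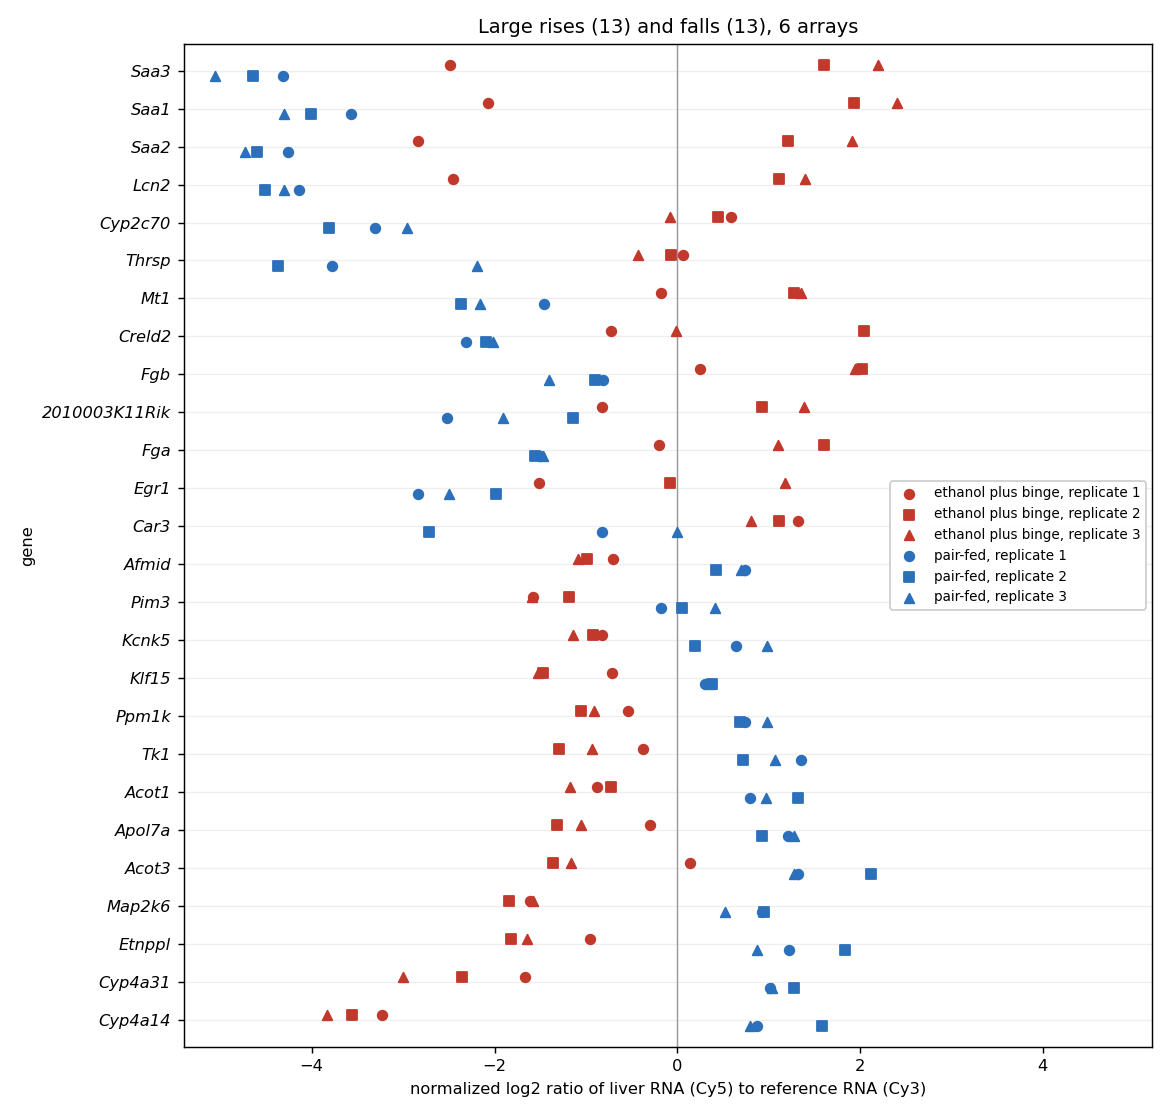
Log2 ratio of liver over reference RNA (horizontal axis) in each of the 3 ethanol-plus-binge and 3 pair-fed livers for 13 of the 14 largest rises and 13 of the 14 largest falls chosen by rule. Points are samples. The groups do not overlap for any gene shown, and for Saa3, Saa1, Saa2 and Lcn2 ethanol-plus-binge replicate 1 lies between the pair-fed livers and the other ethanol-plus-binge livers.

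The gene group that rose most widely was that of the endoplasmic reticulum (ER) chaperones and the machinery that folds, exports and degrades secretory proteins. These genes are known as targets of the unfolded protein response, in which the sensors Atf6, Ern1 (IRE1) and Eif2ak3 (PERK) report misfolded protein in the ER. Of 25 list members tested, 21 rose and 0 fell, against 4.32% of all genes higher, with a median log2 difference of 0.95 against -0.004 over all genes. The endoplasmic reticulum members with the lowest adjusted p were Sec61b, a subunit of the channel through which secretory proteins enter the ER, Derl2 and Edem1, which act in the disposal of misfolded glycoproteins, and Hspa13, a stress chaperone.

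Sec61b had log2 ratios of 0.33, 0.59 and 0.62 in ethanol-plus-binge livers (replicates 1, 2 and 3, the order used throughout), against -0.71, -0.71 and -0.41 in pair-fed livers. It rose by 1.12 ± 0.13 (adjusted p = 1.12e-05). The replicates of each group lay close together and the groups were far apart. Derl2 had 0.60, 0.72 and 0.47 in ethanol-plus-binge livers, against -0.24, -0.14 and -0.21 in pair-fed livers, a rise of 0.80 ± 0.11 (adjusted p = 8.44e-05). Edem1 rose by 0.85 ± 0.12 (adjusted p = 0.000115), with 0.75 and 0.34 by its other probes, and Hspa13 by 1.28 ± 0.21 (adjusted p = 0.000294). These 4 stayed called without any 1 of the 6 arrays.

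The largest called rises in the list were those of Creld2, Manf, Hspa5 and Syvn1. Creld2, a secreted ER stress protein, had -0.72, 2.05 and -0.02 in ethanol-plus-binge livers, against -2.32, -2.09 and -2.02 in pair-fed livers, and rose by 2.58 ± 0.50 (adjusted p = 0.0051). Manf, an ER stress-induced secreted factor, had 0.28, 1.77 and 0.52, against -1.35, -1.21 and -1.16 in pair-fed livers, a rise of 2.10 ± 0.46 (adjusted p = 0.00556). Both were higher in every ethanol-plus-binge liver than in any pair-fed liver, and replicate 2 exceeded the others by more than 1 log2 unit. Hspa5 (BiP), the major ER chaperone, had -0.25, 1.60 and -0.19 in ethanol-plus-binge livers, against -1.69 and -1.55 in the 2 pair-fed livers with a usable spot, and rose by 2.01 ± 0.48 (adjusted p = 0.0359). Syvn1 (Hrd1), the ubiquitin ligase of ER-associated degradation, rose by 1.69 ± 0.42 (adjusted p = 0.0132), and by 0.68 with its other probe. Pdia6, a disulfide isomerase, rose by 1.27 ± 0.28 (adjusted p = 0.00631), and by 0.69 and 0.87 with its other probes.

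All 3 sensors passed the test in the fit of log2 ratios. Atf6 rose by 0.50 ± 0.12 (adjusted p = 0.0125), Ern1 by 0.77 ± 0.20 (adjusted p = 0.0199) and Eif2ak3 by 0.96 ± 0.24 (adjusted p = 0.0163). From the Cy5 signal alone none of the 3 passed (adjusted p = 0.106, 0.0965 and 0.0607). In the fit blocked on slide Eif2ak3 passed (adjusted p = 0.0142) and Atf6 did not (adjusted p = 0.197), while Ern1 rested on a single pair of arrays (0.40). Each of the 3 also lost its call in 2 or 3 of the 6 single-array omissions. Calr, the chaperone calreticulin, rose by 0.80 ± 0.19 (adjusted p = 0.0326), Dnajc3, a co-chaperone, by 0.53 ± 0.12 (adjusted p = 0.0377), and Ero1b, an ER oxidase, by 0.83 ± 0.19 (adjusted p = 0.00874). Of 22 members of the list of the integrated stress response, which acts downstream of Eif2ak3, 2 rose and 0 fell, against 4.32% of all genes higher. Limma called 0 of 19 heat shock genes (7 at an unadjusted p under 0.05). The number of ER members called depended on the array set and on the processing. It was 9 of 25 without ethanol-plus-binge replicate 2, where Manf, Pdia6 and Syvn1 had adjusted p of 0.0598, 0.0658 and 0.132, and 11 to 20 without any other array. It was 11 of 23 with the slide as a block, 9 of 25 from the Cy5 signal alone and 12 of 25 with median centring, in place of 21. By value, 24 of 25 members were higher without that liver, 23 of 23 with the slide as a block and 25 of 25 with the Cy5 signal alone.

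Promoters of the ER genes were searched for the ER stress response element, CCAAT, then 9 bases of any kind, then CCACG, on both strands. Windows ran from 250 bases before to 50 after the annotated gene start, from RefSeq on GRCm38.p6. Of 19 tested members with a window, 9 held it, 7 of them among the 15 members that rose. It was found in 37 of 27025 gene windows (0.137%). The 7 stretches are printed because these genes moved together, with the CCAAT and CCACG parts in capitals, reading along the gene. On the opposite strand the element reads CGTGG, then 9 bases, then ATTGG.

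Hspa5, chr2:34772005-34772063, plus strand: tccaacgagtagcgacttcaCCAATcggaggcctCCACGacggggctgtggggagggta

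Creld2, chr15:88819500-88819558, plus strand: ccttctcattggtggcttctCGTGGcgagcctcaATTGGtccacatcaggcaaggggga

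Syvn1, chr19:6046512-6046570, plus strand: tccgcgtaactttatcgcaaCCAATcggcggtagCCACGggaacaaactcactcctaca

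Pdia6, chr12:17266471-17266529, plus strand: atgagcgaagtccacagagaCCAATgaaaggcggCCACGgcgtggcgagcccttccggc

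Calr, chr8:84847055-84847113, minus strand: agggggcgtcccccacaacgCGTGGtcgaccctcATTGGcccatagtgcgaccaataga

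Dnajc3, chr14:118937807-118937865, plus strand: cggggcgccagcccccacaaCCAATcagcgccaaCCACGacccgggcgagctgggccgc

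Ero1b, chr13:12565662-12565720, plus strand: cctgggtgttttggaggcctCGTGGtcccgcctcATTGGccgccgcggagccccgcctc

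The element began at -65 in Hspa5, -126 in Creld2, -44 in Syvn1, -98 in Pdia6, -162 in Calr, -105 in Dnajc3 and -201 in Ero1b, counted from the annotated start. A match of letters is a description of these windows and was not tested as a binding site.

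**Figure D2:**
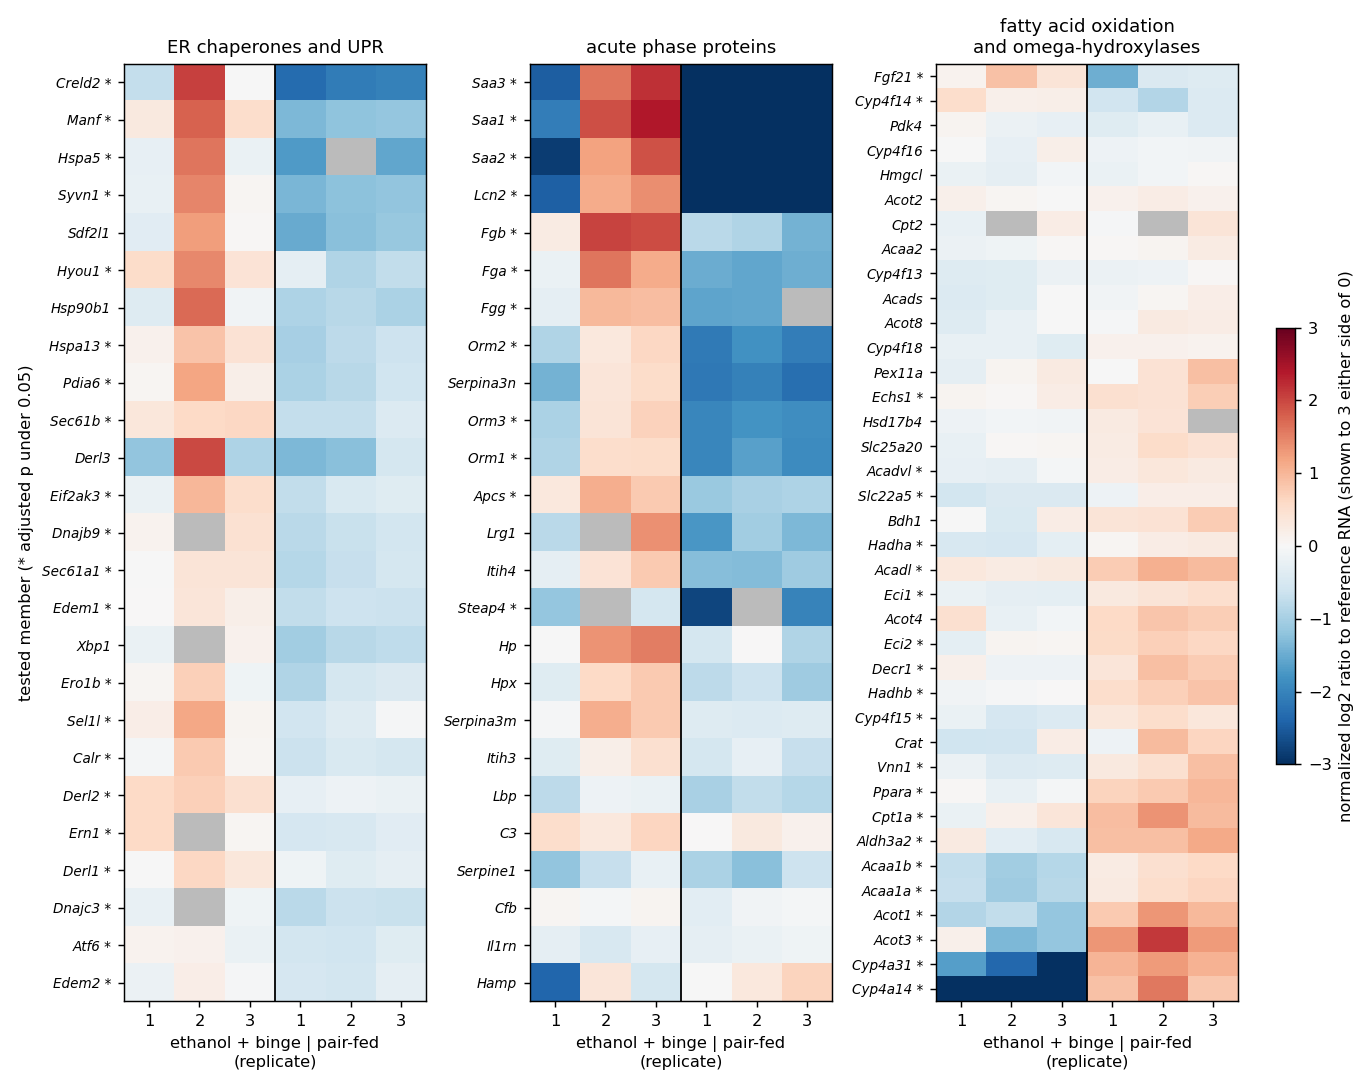
Log2 ratio of liver over reference RNA for the tested genes of 4 lists in 3 panels (rows, with the omega-hydroxylases beside the fatty acid oxidation genes), in the 3 ethanol-plus-binge livers (left of the line) and the 3 pair-fed livers (right of it). The colour scale runs from -3 to 3, grey cells had no usable spot, and an asterisk marks an adjusted p under 0.05. Most endoplasmic reticulum genes are highest in ethanol-plus-binge replicate 2, most called acute phase genes are lowest in replicate 1 among the ethanol-plus-binge livers, and most fatty acid oxidation genes are lower in all 3.

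The 4 largest rises of the log2 ratio were those of acute phase proteins, plasma proteins that hepatocytes secrete in response to cytokines such as interleukin 6. Of 25 list members tested, 12 rose and 0 fell, against 4.32% of all genes higher. The median difference was 1.66, and 23 of 25 were higher. Saa3, a serum amyloid A protein, had -2.48, 1.60 and 2.20 in ethanol-plus-binge livers, against -4.32, -4.65 and -5.06 in pair-fed livers, and rose by 5.12 ± 1.27 (adjusted p = 0.0139). Lcn2, the iron-siderophore binding protein lipocalin 2, had -2.46, 1.12 and 1.40, against -4.14, -4.51 and -4.30 in pair-fed livers, and rose by 4.34 ± 0.95 (adjusted p = 0.00538). All 3 ethanol-plus-binge livers lay above the pair-fed range for both genes, and replicate 1 was the lowest of them by more than 3 log2 units.

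The same order was seen in the fibrinogen chains and the orosomucoids. Fgb had 0.25, 2.02 and 1.95 in ethanol-plus-binge livers, against -0.81, -0.90 and -1.41 in pair-fed livers, a rise of 2.45 ± 0.57 (adjusted p = 0.00893). Fga rose by 2.34 ± 0.57 (adjusted p = 0.0165) and Fgg by 2.11 ± 0.58 (adjusted p = 0.028). From the Cy5 signal alone these differences were 0.99 for Fgb (adjusted p = 0.0862), 1.56 for Fga (adjusted p = 0.0416) and 1.57 for Fgg (adjusted p = 0.0796). Orm3 rose by 1.91 ± 0.48 (adjusted p = 0.0138), Saa1 by 4.72 ± 1.21 (adjusted p = 0.0171) and Saa2 by 4.62 ± 1.20 (adjusted p = 0.0185). Saa1 and Saa2, and the 3 orosomucoid genes, are near-identical copies whose probes may share signal. The normalized reference channel was also lower for the serum amyloid A genes. From Cy5 alone the rise was 3.62 for Saa3 (adjusted p = 0.0491) and 3.72 for Saa2 (adjusted p = 0.0416). Saa1 differed by 3.06 and did not pass (adjusted p = 0.0666). The rise of Lcn2 was 4.34 from Cy5 alone (adjusted p = 0.00676).

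The acute phase count rested on the livers that entered. It was 16 without ethanol-plus-binge replicate 1, 2 without replicate 2, 1 without replicate 3, and 4 to 6 without any 1 pair-fed liver. Lcn2 stayed called without any 1 of the 6 arrays, whereas Saa3 had an adjusted p of 0.0873 without ethanol-plus-binge replicate 2 and 0.0848 without replicate 3, and the calls of Saa1, Saa2, Fga, Fgb and Orm3 were lost in some of these fits.

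Among 15 components of interleukin 6 signalling, 4 rose and 1 fell, against 4.32% of all genes higher and 2.9% lower. The transcription factor Stat3 rose by 0.78 ± 0.20 (adjusted p = 0.0163), the receptor subunit Il6st (gp130) by 0.54 ± 0.13 (adjusted p = 0.0143), and Bcl3, a nuclear IkB protein, by 1.57 ± 0.34 (adjusted p = 0.00508). Bcl3 had -0.16, 0.28 and -0.04 in ethanol-plus-binge livers and -1.75, -1.58 and -1.30 in pair-fed livers, and its groups were well separated. Pim3, a serine/threonine kinase, fell by 1.54 ± 0.28 (adjusted p = 0.00088). Il6 itself was well above background in 3 ethanol-plus-binge livers and 1 pair-fed liver and did not pass the test (difference 0.18, adjusted p = 0.165). The STAT motif TTCCNGGAA was in 2 of 19 acute phase promoters, those of Fga and Steap4, and in 1.35% of all.

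**Figure D3:**
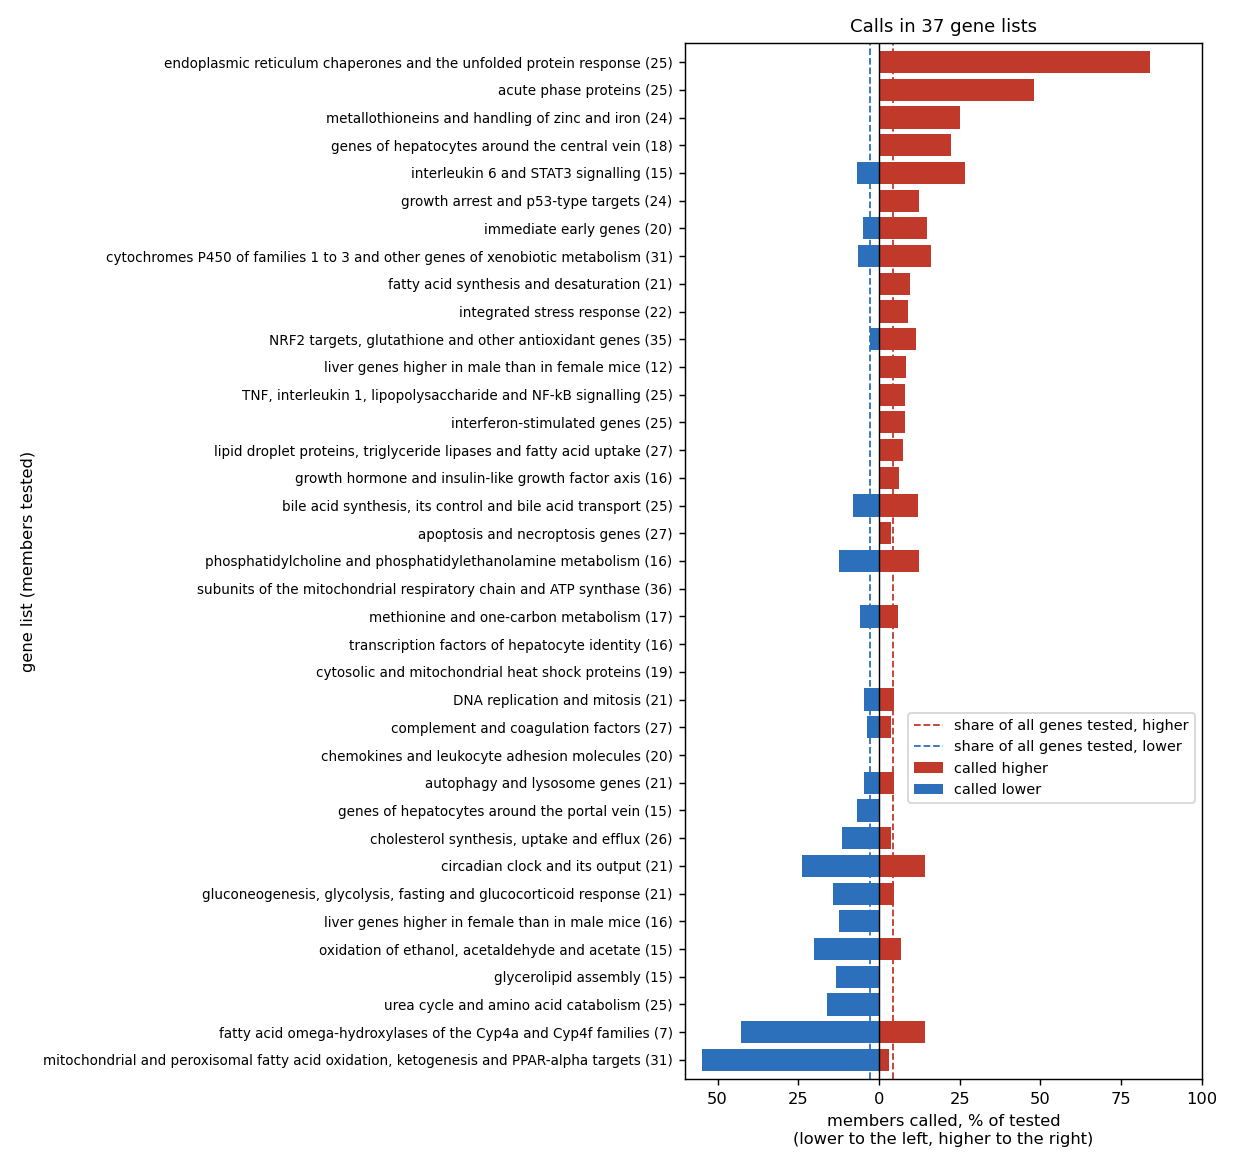
Share of the tested members of each of the 37 gene lists that were called higher (right of 0) or lower (left of 0), in percent, with the number tested in brackets. Dashed lines mark the shares over all genes, 4.32% higher and 2.9% lower. The endoplasmic reticulum and acute phase lists reach furthest to the right, with 21 and 12 of 25 called, and the fatty acid oxidation list furthest to the left, with 17 of 31.

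Genes of fatty acid breakdown fell together. Of 31 tested members of the list of fatty acid oxidation, ketogenesis and PPAR-alpha targets, 17 fell and 1 rose, against 2.9% of all genes lower, and 29 of 31 were lower with a median of -0.61. The enzymes of successive steps were among them. Cpt1a, which commits fatty acids to the mitochondrion, fell by 0.96 ± 0.16 (adjusted p = 0.00049), the dehydrogenases Acadvl and Acadl by 0.47 ± 0.12 (adjusted p = 0.0162) and 0.64 ± 0.12 (adjusted p = 0.00145), and the trifunctional protein subunits Hadha and Hadhb by 0.61 ± 0.13 (adjusted p = 0.00559) and 0.74 ± 0.11 (adjusted p = 0.000177). The enoyl-CoA isomerases Eci1 and Eci2, which handle unsaturated chains, fell by 0.64 ± 0.13 (adjusted p = 0.00297) and 0.69 ± 0.13 (adjusted p = 0.00242). The peroxisomal thiolases Acaa1a and Acaa1b, near-identical copies, fell by 1.33 ± 0.31 (adjusted p = 0.00947) and 1.31 ± 0.32 (adjusted p = 0.0125).

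Hadhb shows the size of these changes. It had -0.10, -0.04 and 0.02 in ethanol-plus-binge livers and 0.53, 0.72 and 0.85 in pair-fed livers, with no overlap and a spread within each group that was small beside the gap. The largest falls among the 31 tested were those of Acot3 and Acot1, acyl-CoA thioesterases and classical PPAR-alpha targets, though a list member with a value only when irregular spots were kept fell by more (Ehhadh, given below). Acot1 had -0.88, -0.73 and -1.17 in ethanol-plus-binge livers, against 0.79, 1.32 and 0.97 in pair-fed livers, and fell by 1.96 ± 0.34 (adjusted p = 0.000673). Acot3 had 0.14, -1.36 and -1.16, against 1.32, 2.12 and 1.27 in pair-fed livers, and fell by 2.36 ± 0.57 (adjusted p = 0.011), a call that 3 of the 6 single-array omissions ended (adjusted p of 0.0515 to 0.0745). Ppara, the nuclear receptor itself, had 0.03, -0.21 and -0.07 in ethanol-plus-binge livers, against 0.66, 0.78 and 0.99 in pair-fed livers, and fell by 0.89 ± 0.23 (adjusted p = 0.0183), also a call lost in 4 of 6 omissions (adjusted p of 0.0511 to 0.0907). The 1 member that rose was Fgf21, a hormone that is both a PPAR-alpha and a stress-response target, by 1.22 ± 0.35 (adjusted p = 0.0334), and this call was lost in 3 of 6 omissions (adjusted p of 0.0713 to 0.215). The other probe of Fgf21 gave 0.66.

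The count of oxidation genes was 7 without ethanol-plus-binge replicate 2, 11 to 16 without any other array, 11 with the slide as a block, 10 from Cy5 alone and 6 with median centring, in place of 18. With irregular spots kept, 22 of 42 members were called. Ehhadh, the peroxisomal bifunctional enzyme, then fell by 2.77 ± 0.22 (adjusted p = 1.66e-07) and Acadm, the medium-chain dehydrogenase, by 0.78 ± 0.13 (adjusted p = 0.000558). Among 36 tested subunits of the respiratory chain, 0 were called by limma and 2 had an unadjusted p under 0.05. The PPAR-type direct repeat, AGGTCA, 1 base, AGGTCA, was in 0 of 25 of these promoters and in 0.0481% of all.

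The omega-hydroxylases of the Cyp4 family, which oxidise the far end of fatty acids, gave 3 falls and 1 rise among 7 tested. Over all genes, 2.9% were lower and 4.32% higher. Cyp4a14 had -3.23, -3.56 and -3.83 in ethanol-plus-binge livers, against 0.87, 1.58 and 0.80 in pair-fed livers, and fell by 4.62 ± 0.72 (adjusted p = 0.000271). Cyp4a31 had -1.66, -2.36 and -3.00, against 1.02, 1.28 and 1.04 in pair-fed livers, and fell by 3.45 ± 0.32 (adjusted p = 1.48e-06). In both, every ethanol-plus-binge liver, replicate 1 included, was far below every pair-fed liver. Another probe of Cyp4a31 gave -4.05, but the gene is near-identical to Cyp4a10, which had no usable pair of groups unless irregular spots were kept (-3.70, adjusted p = 2.21e-05). Cyp4f15 fell by 0.78 ± 0.15 (adjusted p = 0.00217), whereas Cyp4f14, which inactivates leukotriene B4, rose by 0.92 ± 0.17 (adjusted p = 0.00123). The same 4 calls were made without any 1 of the 6 arrays.

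Fatty acid synthesis showed few but large changes. Of 21 list members tested, 2 rose and 0 fell, against 4.32% of all genes higher, and the median was 0.52. Thrsp (Spot 14), a regulator of lipogenic enzymes, had 0.06, -0.07 and -0.43 in ethanol-plus-binge livers, against -3.77, -4.36 and -2.19 in pair-fed livers, and rose by 3.30 ± 0.38 (adjusted p = 3.41e-05). Its paralog Mid1ip1 had 1.04, 0.20 and -0.02, against -0.96, -1.16 and -0.47 in pair-fed livers, and rose by 1.27 ± 0.29 (adjusted p = 0.00823). Replicate 1 was the highest of the ethanol-plus-binge livers here, in contrast to the acute phase genes. Fatty acid synthase (Fasn) had -0.08, -0.71 and -0.46 in ethanol-plus-binge livers, against -1.94, -2.07 and -0.73 in pair-fed livers, a difference of 1.16 ± 0.47 that did not pass (adjusted p = 0.159). Srebf1, the lipogenic transcription factor, differed by 0.65 ± 0.41 (adjusted p = 0.422) and Acaca, acetyl-CoA carboxylase, by 0.12 ± 0.20 (adjusted p = 0.836).

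In the fasting and glucocorticoid list, 3 of 21 members tested fell and 1 rose, against 2.9% of all genes lower and 4.32% higher. Klf15, a fasting-induced regulator of amino acid use, had -0.72, -1.47 and -1.53 in ethanol-plus-binge livers, against 0.30, 0.38 and 0.35 in pair-fed livers, and fell by 1.58 ± 0.21 (adjusted p = 3.5e-05). Ppargc1a (PGC-1 alpha) fell by 0.69 ± 0.18 (adjusted p = 0.0201) and Foxo1 by 0.66 ± 0.19 (adjusted p = 0.0322).

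Of 15 triglyceride assembly genes, 2 fell and 0 rose, against 2.9% of all genes lower. These were Dgat1, the final enzyme of triglyceride synthesis, by 0.55 ± 0.13 (adjusted p = 0.00954), and Gpat4, an acyltransferase of its first step, by 0.49 ± 0.12 (adjusted p = 0.0115). Of 27 lipid droplet and fatty acid uptake genes, 2 rose, against 4.32% of all genes. This count was 4 without ethanol-plus-binge replicate 1, and limma called 0 without pair-fed replicate 1, from Cy5 alone and with median centring (6, 7 and 6 at an unadjusted p under 0.05). They were the droplet coat protein Plin3, by 0.69 ± 0.17 (adjusted p = 0.0173), and the receptor Pparg, by 0.49 ± 0.13 (adjusted p = 0.0196).

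Cidec (Fsp27), the droplet fusion protein named in the study's title, had -2.40, 0.84 and 1.41 in ethanol-plus-binge livers, against -1.52, 0.23 and -0.82 in pair-fed livers. The groups overlapped, replicate 1 being the lowest of all 6 livers and the other ethanol-plus-binge livers the highest. The difference was 0.65 ± 0.78 (adjusted p = 0.739). It was 1.83 without ethanol-plus-binge replicate 1 (adjusted p = 0.117) and -0.07 without replicate 3 (adjusted p = 0.983).

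Cholesterol genes gave 3 falls and 1 rise among 26 tested, against 2.9% of all genes lower and 4.32% higher. Among the falls were Insig1, which retains the SREBP complex in the ER (-1.12 ± 0.27, adjusted p = 0.0101), and Fdft1, squalene synthase (-1.13 ± 0.29, adjusted p = 0.0157), whose other probe gave 0.12. Insig1 had 0.31, -1.08 and -0.92 in ethanol-plus-binge livers, against 0.60, 0.04 and 1.04 in pair-fed livers, so that its groups overlapped through replicate 1. Abca1, the cholesterol exporter, had 0.26 and 0.09 in the 2 ethanol-plus-binge livers with a usable spot, against -0.98, -1.10 and -1.04 in pair-fed livers, and rose by 1.21 ± 0.29 (adjusted p = 0.0104). Between 0 and 4 members were called when 1 array was left out.

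Drug-metabolising enzymes moved both ways, with 5 of 31 tested members higher and 2 lower, against 4.32% and 2.9% of all genes. The 7 calls became 3 without either pair-fed replicate 1 or 2 and with the slide as a block. Cyp2b10, a classical target of the receptor CAR, had -0.43 and 0.89 in the 2 ethanol-plus-binge livers with a usable spot, against -3.88, -4.10 and -3.30 in pair-fed livers, a rise of 3.99 ± 0.69 (adjusted p = 0.00107). Cyp2c70, the mouse enzyme of muricholic acid synthesis, had 0.58, 0.45 and -0.08, against -3.31, -3.81 and -2.96 in pair-fed livers, and rose by 3.68 ± 0.55 (adjusted p = 0.000233). Neither gene's groups came near each other. Cyp2c29 rose by 1.58 ± 0.36 (adjusted p = 0.0106), but it did not pass from Cy5 alone (0.89, adjusted p = 0.091). In the fit blocked on slide its value rested on a single pair of arrays (1.60). The falls were Cyp3a16, by 1.33 ± 0.23 (adjusted p = 0.00224), and Alas1, the first enzyme of heme synthesis. With the slide as a block Cyp3a16 rested on a single pair of arrays (-1.44). Alas1 had -0.54, -0.56 and -0.82 in ethanol-plus-binge livers and 0.73, 0.68 and 1.17 in pair-fed livers, and fell by 1.50 ± 0.32 (adjusted p = 0.00503).

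Transporters of bile acids and organic anions also split. Of 25 bile acid genes tested, 3 rose and 2 fell, against 4.32% of all genes higher and 2.9% lower. The ileal-type bile acid transporter Slc10a2, which bile duct cells also use, rose by 1.57 ± 0.30 (adjusted p = 0.00202), and the canalicular export pump Abcb11 by 0.55 ± 0.13 (adjusted p = 0.0163). The uptake carrier Slco1a4 had -0.37, -0.88 and -0.76 in ethanol-plus-binge livers, against 1.07, 1.03 and 0.06 in pair-fed livers, and fell by 1.39 ± 0.26 (adjusted p = 0.0015). Klb, the co-receptor for Fgf21 and Fgf15, fell by 0.67 ± 0.18 (adjusted p = 0.0245). Slc22a7, an organic anion carrier of the hepatocyte that is in no list, had 0.67, 0.65 and 0.73, against -1.73, -1.49 and -0.79 in pair-fed livers, and rose by 2.02 ± 0.30 (adjusted p = 0.000118).

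Of 15 ethanol-oxidising genes tested, 3 fell and 1 rose, against 2.9% of all genes lower and 4.32% higher. Cyp2e1 had 0.41, 0.22 and -0.30 in ethanol-plus-binge livers, against 1.01, 0.42 and 0.69 in pair-fed livers, and differed by -0.60 ± 0.21 without passing (adjusted p = 0.0845). Without ethanol-plus-binge replicate 1 it passed (-0.75, adjusted p = 0.043), while blocking on the slide gave -0.59 (adjusted p = 0.198) and from Cy5 alone -0.36 (adjusted p = 0.488). Adh4 had 0.24, -0.21 and -0.28 in ethanol-plus-binge livers, against 1.00, 0.77 and 1.15 in pair-fed livers, and fell by 1.05 ± 0.24 (adjusted p = 0.00963). Aldh3a2, which clears fatty aldehydes, fell by 1.16 ± 0.30 (adjusted p = 0.0219) and Aldh9a1 by 0.45 ± 0.11 (adjusted p = 0.0165). Adh7, the class IV dehydrogenase known mainly from the stomach, rose by 0.65 ± 0.19 (adjusted p = 0.0414). Between 0 and 5 members were called with 1 array left out.

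Enzymes of phospholipid and methyl-group metabolism held several of the clearest single-gene changes. Etnppl, which breaks down phosphoethanolamine, had -0.95, -1.82 and -1.65 in ethanol-plus-binge livers, against 1.22, 1.84 and 0.87 in pair-fed livers, and fell by 2.78 ± 0.37 (adjusted p = 3.5e-05). The choline kinases moved in opposite directions. Chka had -0.09, 0.66 and 1.00, against -1.30, -1.47 and -1.16 in pair-fed livers, and rose by 1.83 ± 0.35 (adjusted p = 0.00156), while Chkb fell by 0.56 ± 0.14 (adjusted p = 0.0123). Pcyt1a, the rate-limiting enzyme of phosphatidylcholine synthesis, rose by 0.66 ± 0.15 (adjusted p = 0.0265). These were the 4 calls among 16 phospholipid genes, against 7.22% of all genes called.

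In the methionine cycle 1 of 17 members rose and 1 fell, against 4.32% of all genes higher and 2.9% lower. Mat2a, the S-adenosylmethionine synthase of proliferating and non-hepatic cells, rose by 0.98 ± 0.21 (adjusted p = 0.00555). Ahcy, which removes S-adenosylhomocysteine, had -0.71, -0.77 and -1.25 in ethanol-plus-binge livers, against 0.28, 0.37 and -0.03 in pair-fed livers, and fell by 1.12 ± 0.17 (adjusted p = 0.00384). Among 25 genes of the urea cycle and amino acid breakdown, 4 fell and 0 rose, against 2.9% of all genes lower. They were Afmid, of tryptophan breakdown (-1.54 ± 0.19, adjusted p = 1.93e-05), Hal, of histidine breakdown (-1.40 ± 0.26, adjusted p = 0.00202), Got1, the cytosolic aspartate aminotransferase (-1.51 ± 0.39, adjusted p = 0.0318), and Bckdha, of branched-chain breakdown (-0.53 ± 0.11, adjusted p = 0.00467). Got1 had a usable spot in only 2 livers of each group, with no slide holding both groups. With irregular spots kept it differed by -0.85 and did not pass (adjusted p = 0.323). Ppm1k, the phosphatase that activates the branched-chain complex and is in no list, had -0.54, -1.06 and -0.91 in ethanol-plus-binge livers, against 0.74, 0.69 and 0.98 in pair-fed livers, and fell by 1.64 ± 0.22 (adjusted p = 5.7e-05).

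The circadian clock list had 5 falls and 3 rises among 21 tested, against 2.9% of all genes lower and 4.32% higher. Among the PAR bZIP outputs, Dbp had -0.72 and -1.33 in the 2 ethanol-plus-binge livers with a usable spot, against 1.27, 1.15 and 1.24 in pair-fed livers, and fell by 2.25 ± 0.37 (adjusted p = 0.000488), and Tef fell by 0.97 ± 0.15 (adjusted p = 0.000215), while Hlf differed by -0.60 and did not pass (adjusted p = 0.137). The repressors Ciart and Per3 and the nuclear receptor Nr1d1 fell by 1.23 ± 0.22 (adjusted p = 0.000818), 0.70 ± 0.14 (adjusted p = 0.00281) and 0.84 ± 0.24 (adjusted p = 0.0332). Other probes of Nr1d1 gave -0.28 and -0.69. The rises were Clock, the activator subunit, by 0.56 ± 0.15 (adjusted p = 0.0182), Cry1, a late repressor, by 0.58 ± 0.13 (adjusted p = 0.00814), and Bhlhe40 by 1.13 ± 0.25 (adjusted p = 0.014). With the slide as a block the calls of Ciart (adjusted p = 0.0529), Clock (0.0545) and Bhlhe40 (0.125) were lost. Per1, another repressor, differed by -0.31 and did not pass (adjusted p = 0.4). The hours of collection are not given, and their part in these values was not tested. The E-box CACGTG was in 5 of 17 of these promoters, those of Ciart, Cry1, Tef, Per1 and Bhlhe41, and in 8.09% of all. The D-box TTATGTAA was in that of Per3 and in 1.11% of all.

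Metal-handling genes rose in 6 of 24 cases, Lcn2 being 1 of the 6, and fell in 0, against 4.32% of all genes higher. Mt1, a zinc-binding metallothionein, had -0.17, 1.28 and 1.36 in ethanol-plus-binge livers, against -1.45, -2.36 and -2.16 in pair-fed livers, and rose by 2.81 ± 0.60 (adjusted p = 0.00442). Its normalized reference channel also differed, by -1.19, and from the Cy5 signal alone the rise was 1.62 (adjusted p = 0.014). The manganese exporter Slc30a10 had 0.61, 1.06 and 0.53, against -1.33, -1.25 and -0.60 in pair-fed livers, and rose by 1.79 ± 0.27 (adjusted p = 0.00015). Both genes were higher in every ethanol-plus-binge liver. The ferritin light chain Ftl1 rose by 0.76 ± 0.21 (adjusted p = 0.0286) and transferrin (Trf) by 0.56 ± 0.16 (adjusted p = 0.04). The iron importer Slc11a2, by a probe of the co-moving set, rose by 0.73 ± 0.15 (adjusted p = 0.00339; 0.00 by its other probe). The metal-response motif TGCACNC, present in 14.2% of all promoters, was in 6 of 17 of these, Mt1 among them.

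Antioxidant and glutathione genes under the regulator NRF2 rose in 4 and fell in 1 of 35 cases, against 4.32% of all genes higher and 2.9% lower. With the slide as a block limma called 0 of them (8 at an unadjusted p under 0.05). Txnrd1, thioredoxin reductase, had 0.19, 0.15 and 0.15 in ethanol-plus-binge livers and -0.48, -0.37 and -0.45 in pair-fed livers, and rose by 0.60 ± 0.11 (adjusted p = 0.003). Gstm1, a glutathione transferase with near-identical copies, rose by 1.69 ± 0.45 (adjusted p = 0.0226), and Prdx6, a peroxiredoxin, fell by 0.41 ± 0.12 (adjusted p = 0.0406). In the p53 list, 3 of 24 rose and 0 fell, against 4.32% of all genes higher. They were Bax, a pore-forming promoter of apoptosis (0.49 ± 0.09, adjusted p = 0.00138), Zmat3 (0.45 ± 0.10, adjusted p = 0.00885, well above background in 3 ethanol-plus-binge livers and 1 pair-fed liver) and Plk2 (0.53 ± 0.13, adjusted p = 0.0139).

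Immediate early genes, induced within minutes by many signals, rose in 3 and fell in 1 of 20 cases. Over all genes, 4.32% were higher and 2.9% lower. Ier5 had -0.28, 0.23 and 0.30 in ethanol-plus-binge livers and -0.97, -1.21 and -0.62 in pair-fed livers, and rose by 1.01 ± 0.16 (adjusted p = 0.000189). Egr1 had -1.51, -0.08 and 1.18, against -2.83, -1.99 and -2.49 in pair-fed livers, and rose by 2.30 ± 0.51 (adjusted p = 0.00579), with an adjusted p of 0.0529 without ethanol-plus-binge replicate 3. The ethanol-plus-binge livers were spread over more than 2 log2 units for Egr1 and much closer for Ier5. Klf10 rose by 1.71 ± 0.44 (adjusted p = 0.0177), and Zfp36, which destabilises cytokine mRNAs, fell by 0.80 ± 0.19 (adjusted p = 0.00998).

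Other large falls were those of regulators and enzymes outside these groups. Map2k6, a kinase that activates p38, had -1.61, -1.84 and -1.58 in ethanol-plus-binge livers, against 0.93, 0.95 and 0.53 in pair-fed livers, and fell by 2.48 ± 0.28 (adjusted p = 9e-06), while its other probe gave -0.75. Each group was tight, and replicate 1 did not differ from the other ethanol-plus-binge livers. Tk1, thymidine kinase, fell by 1.92 ± 0.24 (adjusted p = 2.3e-05), Kcnk5, a potassium channel, by 1.57 ± 0.23 (adjusted p = 9.3e-05) and Apol7a by 2.03 ± 0.30 (adjusted p = 0.000191). In a list of 21 tested cell cycle genes, which did not include Tk1, 1 rose (Rrm2, adjusted p = 0.00559, which was well above background in all 3 ethanol-plus-binge livers and in 1 pair-fed liver) and 1 fell (Ccne2, -0.48, adjusted p = 0.0372). Over all genes, 4.32% were higher and 2.9% lower.

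Car3, a carbonic anhydrase of hepatocytes and of fat, had 1.32, 1.12 and 0.80 in ethanol-plus-binge livers, against -0.82, -2.72 and 0.00 in pair-fed livers, and rose by 2.26 ± 0.40 (adjusted p = 0.00088). The value was 1.47 from Cy5 alone (adjusted p = 0.0173), 3.84 and 0.80 within the 2 slides that held both groups, and 1.49 to 2.85 with 1 array left out. Adipoq, which marks adipocytes, differed by 0.25 ± 0.18 (adjusted p = 0.484), and 1 of 8 markers of fat, Car3, was called, against 7.22% of all genes. The gene 2010003K11Rik, whose function is not given here, rose by 2.35 ± 0.46 (adjusted p = 0.00221).

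Markers of cell types were examined beside these groups. In bulk liver RNA, a change in the number of cells of a type and a change in RNA per cell cannot be told apart. The defining hepatocyte genes Alb and Apoa1 were well above background on all 6 arrays. Alb had 1.29, 0.99 and 1.13 in ethanol-plus-binge livers and 1.20, 1.23 and 0.77 in pair-fed livers, and Apoa1 had 0.67, 1.14 and 0.82 and, in pair-fed livers, 0.54, 1.17 and 0.36. Neither passed the test (adjusted p = 0.931 and 0.791), whereas 3 of 9 hepatocyte markers rose, against 4.32% of all genes. These were Ttr (0.84 ± 0.24, adjusted p = 0.04), Trf and Ahsg (1.05 ± 0.22, adjusted p = 0.00352), and in the Cy5 signal alone Ahsg differed by 0.29 (adjusted p = 0.422). Markers of pancreas, bile duct cells and red cells gave 0 called by limma of 11, 7 and 6 tested (1, 0 and 0 at an unadjusted p under 0.05), and Prss2 and Krt19 differed by 0.02 and -0.12.

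Markers of inflammatory cells were examined in 2 lists, against 7.22% of all genes called. Of 14 neutrophil markers tested only Lcn2, which hepatocytes also make, was called. The list's mean log2 ratio per array, Lcn2 included, was -0.22, 0.03 and 0.01 in ethanol-plus-binge livers and -0.48, -0.32 and -0.42 in pair-fed livers. These means lean on Lcn2, which rose by 4.34, while the median difference of the 14 markers was 0.12. S100a8 was well above background in 2 ethanol-plus-binge livers and 0 pair-fed livers, and S100a9 differed by 0.35 ± 0.24 (adjusted p = 0.483). Of 15 Kupffer cell and macrophage markers 0 were called by limma (2 at an unadjusted p under 0.05), with list means of 0.10 to 0.14 in ethanol-plus-binge livers and -0.17 to -0.01 in pair-fed livers. Clec4f differed by 0.39 ± 0.20 (adjusted p = 0.3) and Adgre1 by 0.13 ± 0.21 (adjusted p = 0.82). Of 20 chemokine and adhesion genes 0 were called by limma (2 at an unadjusted p under 0.05), among them the monocyte attractant Ccl2 (0.15, adjusted p = 0.482).

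Among 25 genes of NF-kB and cytokine signalling, 2 rose, against 4.32% of all genes. They were the receptor Tnfrsf1a, by 0.72 ± 0.14 (adjusted p = 0.0018), and Tnfaip2, by 1.04 ± 0.21 (adjusted p = 0.00253). Among 25 interferon-stimulated genes 2 also rose, Bst2 by 0.80 ± 0.15 (adjusted p = 0.00241) and Tap1 by 1.60 ± 0.22 (adjusted p = 5.75e-05), with the Tap1 probe in the co-moving set. Of 13 lymphocyte markers 2 rose, Cd3g by 0.98 ± 0.23 (adjusted p = 0.00806) and the cytotoxic granule gene Nkg7 by 0.75 ± 0.17 (adjusted p = 0.00847).

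The non-parenchymal list with most calls was that of sinusoidal endothelium. Of 17 tested members 5 rose and 0 fell, against 4.32% of all genes higher and 2.9% lower, with a median of 0.40. Between 3 and 6 were called with 1 array left out, 3 with the slide as a block (without Clec4g and Wnt2, adjusted p = 0.127 and 0.101) and 2 from Cy5 alone. Fcgr2b, an Fc receptor of these cells, had 0.21, 0.25 and 0.34 in ethanol-plus-binge livers and -0.66, -0.88 and -0.80 in pair-fed livers, and rose by 1.04 ± 0.21 (adjusted p = 0.00239), while its other probes gave 0.19 and 0.51. Clec4g, a sinusoidal lectin, had 0.61, 0.41 and 0.47, against -0.27, -0.26 and -0.18 in pair-fed livers, and rose by 0.73 ± 0.17 (adjusted p = 0.0101). The hyaluronan receptor Lyve1 rose by 1.24 ± 0.29 (adjusted p = 0.00823), Wnt2 by 0.61 ± 0.12 (adjusted p = 0.00332) and Stab1 by 0.52 ± 0.14 (adjusted p = 0.0251). Stab1 had 0.28 by its other probe. Its close relative Stab2 differed by 0.18 ± 0.12 (adjusted p = 0.462). The list's mean per array was 0.08 to 0.23 in ethanol-plus-binge livers and -0.37 to -0.21 in pair-fed livers. Of 15 stellate cell genes 3 rose, against 4.32% of all genes. They were Lrat, which stores retinol as esters, by 0.92 ± 0.19 (adjusted p = 0.00332), Rgs5 by 0.53 ± 0.12 (adjusted p = 0.00643) and Dcn by 0.63 ± 0.16 (adjusted p = 0.0219), but the collagen gene Col1a1 differed by 0.01 ± 0.38 (adjusted p = 0.996). With the slide as a block limma called 0 stellate genes (6 at an unadjusted p under 0.05).

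Of 18 genes of the pericentral zone of the lobule 4 were called higher and 0 lower, against 4.32% and 2.9% of all genes. Cyp2e1, also in this list, had its lowest difference (-0.60) and did not pass in the limma fit (adjusted p = 0.0845), though it did without ethanol-plus-binge replicate 1. Lect2 rose by 0.66 ± 0.16 (adjusted p = 0.0174) and Cyp1a2 by 1.03 ± 0.17 (adjusted p = 0.014). Cyp1a2 had a usable spot in only 2 livers of each group, and with irregular spots kept it did not pass (0.88, adjusted p = 0.126). Axin2 also counts among the 4 (adjusted p = 0.0184) but was not well above background on any of the 6 arrays, so that no fold is given for it. Limma called 0 pericentral genes without ethanol-plus-binge replicate 2, without pair-fed replicate 2, with the slide as a block and from Cy5 alone (7, 7, 7 and 5 at an unadjusted p under 0.05), and 1 with median centring. Of 15 periportal genes 1 fell, Hal, against 2.9% of all genes lower. Hepatocyte transcription factors gave 0 of 16 by limma (6 at an unadjusted p under 0.05), complement and coagulation factors 1 rise and 1 fall of 27, autophagy genes 1 rise and 1 fall of 21, and cell death genes 1 rise of 27, Bax. Of 16 growth hormone and growth factor genes 1 rose, the receptor Egfr, by 1.65 ± 0.46 (adjusted p = 0.0279; 0.54, 1.64 and 0.97 by its other probes). Of 12 male-biased genes Selenbp2 rose, and of 16 female-biased genes Acot3 and Cyp3a16 fell. Of 8 muscle genes Tnnt3, of the co-moving set, rose and Myh1 fell by 0.42 ± 0.10 (adjusted p = 0.0107), while its other probe gave -0.05.

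**Figure D4:**
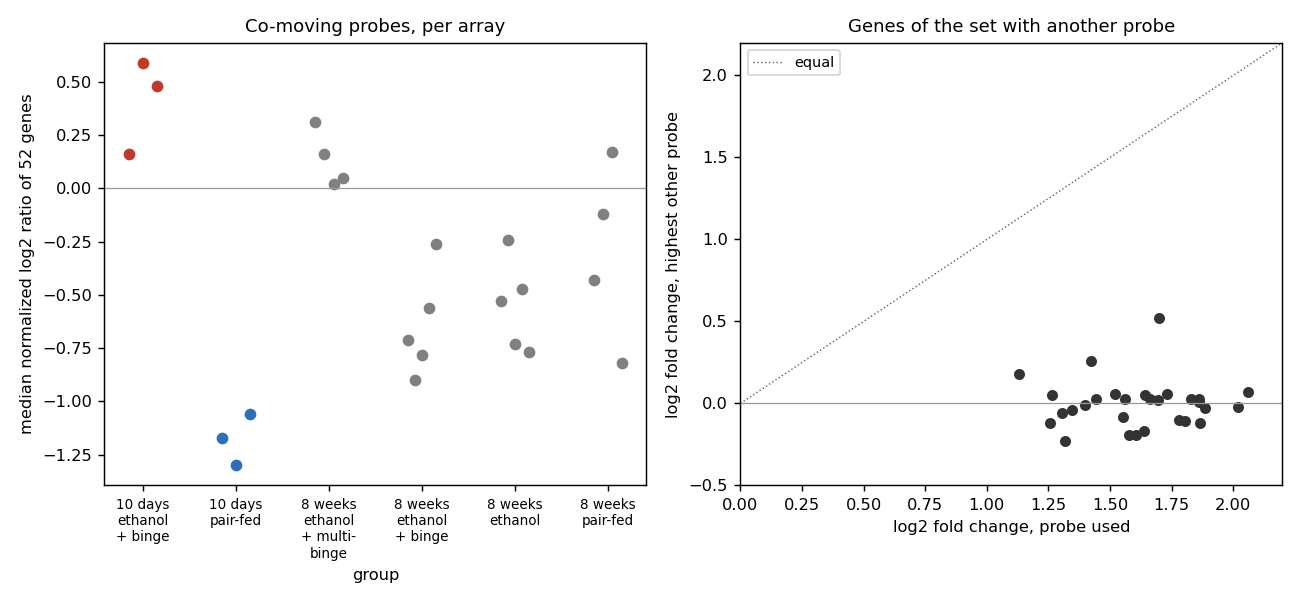
Left, median log2 ratio of the 52 co-moving genes that were at least 2-fold higher, on each of the 24 arrays by group (1 point per array). Right, log2 difference of each of these genes by its highest other probe (vertical axis) against the probe used (horizontal axis), for the 29 with another probe. The 10-day ethanol-plus-binge livers lie at 0.16 to 0.59 and the 10-day pair-fed livers lowest at -1.30 to -1.06, and 28 of the 29 other probes lie under 0.5.

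The effect of ethanol plus a binge at 10 days was then compared with the same effect at 8 weeks, to ask which changes differed between the shorter and the longer diet. The difference of the 2 effects, 10 days minus 8 weeks, was called for 521 of 15448 genes (3.37%), positive for 374 and negative for 147, and 64 of the 374 were genes of the co-moving set. The 2 effects share no array, but the 10-day and 8-week arrays came from different scans, so that scan and diet length cannot be told apart. The count was 187 with the slide as a block, 195 from Cy5 alone and 162 with median centring, and 347, 342 and 322 without ethanol-plus-binge replicate 1 and pair-fed replicates 1 and 2 of 10 days.

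Fatty acid synthesis held some of the largest differences. Of 17 members tested 5 had a positive difference and 0 a negative one, against 374 and 147 of all 15448 genes. Thrsp, which rose at 10 days, differed by -0.57 at 8 weeks, and the difference between the effects was 3.87 (adjusted p = 0.000484). Its pair-fed livers lay at -4.36 to -2.19 at 10 days, but those measured at 8 weeks were at 0.00 and 0.30, whereas the ethanol-plus-binge livers lay near each other at both times. Srebf1 differed by 0.65 at 10 days and by -2.72 at 8 weeks (difference 3.37, adjusted p = 0.000373). It had -2.71 to -1.21 in the 5 ethanol-plus-binge livers of 8 weeks and 0.46 to 0.88 in their 4 pair-fed livers. Fasn (difference 2.42, adjusted p = 0.0337) and Mid1ip1 (2.64, adjusted p = 0.000132) also had positive differences.

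The Cyp4a genes differed in the other direction. Cyp4a14 fell by 4.62 at 10 days and differed by 0.67 at 8 weeks, a difference of -5.29 (adjusted p = 0.00217), with 8-week pair-fed values of -3.32, 0.28 and 1.10. Cyp4a31 fell by 3.45 at 10 days and differed by 0.02 at 8 weeks (difference -3.48, adjusted p = 4.5e-05). Its 5 ethanol-plus-binge livers of 8 weeks lay between -0.32 and 0.01, against -3.00 to -1.66 in those of 10 days. Of 29 fatty acid oxidation genes tested for this difference, 3 were negative, against 147 of all 15448 genes. Among them was Acot1 (-1.74, adjusted p = 0.0251).

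The other positive differences named by the rule were those of Hsd3b5, Selenbp2, Slc22a7 and Cyp2c70. Hsd3b5, a male-specific steroid dehydrogenase of mouse liver, differed by -0.12 at 10 days and by -4.20 at 8 weeks (difference 4.08, adjusted p = 0.0119). It had 0.53, 0.59 and -0.51 in ethanol-plus-binge livers of 10 days and -3.97 to -1.71 in those of 8 weeks, with pair-fed ranges of -0.75 to 1.23 at 10 days and 0.54 to 1.65 at 8 weeks. Selenbp2, a selenium-binding protein, rose by 1.61 at 10 days and differed by -1.70 at 8 weeks (difference 3.32, adjusted p = 0.00317). Its 8-week pair-fed livers with a usable spot had 0.74 and 0.01. Slc22a7 rose by 2.02 at 10 days and differed by -1.40 at 8 weeks (difference 3.42, adjusted p = 4.5e-05). Cyp2c70 differed by 0.11 at 8 weeks (difference 3.57, adjusted p = 0.013). Its 8-week pair-fed livers with a usable spot had -0.53 and -0.89, against -3.81 to -2.96 in the pair-fed livers of 10 days. The ethanol-plus-binge livers of 8 weeks ran from -1.96 to 1.44.

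The other negative differences named by the rule were in genes with positive values for the 8-week effect. Trp53inp1, a p53-induced regulator of autophagy, differed by -0.69 at 10 days and by 1.66 at 8 weeks (difference -2.35, adjusted p = 0.0111). Ddit4, an inhibitor of mTOR signalling, differed by -0.26 and 1.82 (difference -2.07, adjusted p = 0.0111), Retreg1, an ER-phagy receptor, by -0.14 and 1.92 (-2.06, adjusted p = 0.0119), and Cd14, the endotoxin co-receptor, by 0.26 and 2.30 (-2.04, adjusted p = 0.0244). In the ER list 7 of 22 members had a positive difference and 0 a negative one, against 374 and 147 of all 15448 genes. Sec61b (1.26, adjusted p = 7.9e-05) and Derl2 (1.11, adjusted p = 7.68e-05) had the lowest adjusted p. Of 22 acute phase genes 0 had a difference called by limma (4 at an unadjusted p under 0.05), and for Mt1 it was -2.74 (adjusted p = 0.0506).

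**Figure D5:**
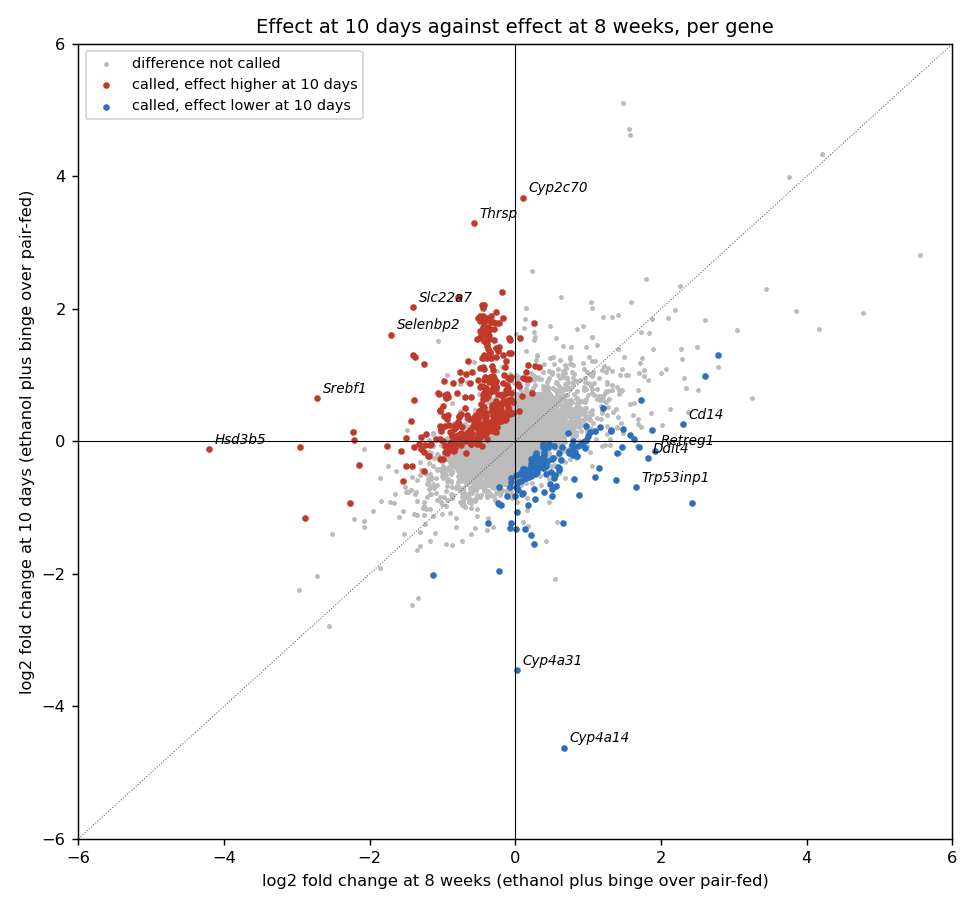
Log2 difference, ethanol plus binge minus pair-fed, at 10 days (vertical axis) against that at 8 weeks (horizontal axis), with 1 point per gene and genes whose 2 effects differed by the test in colour. The 12 genes with the largest called differences are named. Thrsp and Cyp2c70 lie high and Cyp4a14 and Cyp4a31 low near the vertical axis, and Hsd3b5 and Cd14 lie near the horizontal axis at -4.20 and 2.30.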

How the data were processed

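Mouse liver RNA was hybridised to 2-colour Agilent arrays, with the liver sample in Cy5 and a commercial mouse reference RNA in Cy3, per the labels. The scanner files hold spot intensity values in both channels and a log10 ratio of Cy5 over Cy3, both made by the authors with Agilent Feature Extraction 11.5.1.1, per the submitters' processing notes and the file headers. A deposited table holds log2 ratios of the same arrays, which followed the scanner ratios with a slope of 1 over each array, and its use was an alternative. RNA was extracted with Trizol and a column kit and labelled indirectly, per the labels' protocols.

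Median intensities were background-corrected (normexp, offset 50) and normalized by loess within each array in limma 3.58.1 (R 4.3.3, statmod 1.5.0, the data.table package, version 1.17.8). Control spots and spots that the scanner software marked as irregular were left out, and spots of a probe were averaged. A probe entered where the scanner software called its Cy5 signal well above background on 3 or more arrays, which left 36648 of 41174. Probes were named through RefSeq transcript accessions (GRCm38.p6), of which 24375 gave 1 symbol, and a gene was represented by its brightest probe with usable spots on 2 or more arrays in each group. Loess assumes that most genes do not change, and no spot was saturated. Values of Cy5 or Cy3 alone were taken after this loess and a quantile normalization of mean spot intensity between arrays. Both channels therefore entered each of them. The number of arrays limits the precision.

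One limma fit of 6 group means over 24 arrays gave the ethanol-plus-binge minus pair-fed contrast at 10 days, and its difference from the same contrast at 8 weeks, with p-values adjusted by Benjamini-Hochberg over all genes tested. On simulated data of 12088 genes for the 10-day contrast, 97% of 100 genes changed by 1 log2 unit and 100% of 100 changed by 2 were called, with 0.0673% of the unchanged genes. The simulated noise was normal, independent between genes and arrays, and of the fitted spread in every group. Only genes with a value on all 24 arrays entered. It held no liver that stands apart, so these shares check the fit and do not give the error rates in the real data.

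The gene groups, lists and alternatives were chosen with earlier results of these data known. The rule named Cidec, the 14 largest rises and falls among called genes that were measured on all 6 arrays without overlap and well above background in the higher group, in each list up to 4 called and up to 2 uncalled members by adjusted p, defining markers of each cell type, and the 6 largest called differences between diets in each direction. Some of the genes it named are not reported here. Named outside it, after their values were seen, were Acaa1a, Acaa1b, Acaca, Acadm, Acadvl, Atf6, Bhlhe40, Bhlhe41, Calr, Ccl2, Clock, Cry1, Cyp2c29, Cyp4a10, Dnajc3, Eci1, Eci2, Edn2, Ehhadh, Eif2ak3, Ern1, Ero1b, Fasn, Fgg, Ftl1, Hadha, Hspa5, Klb, Manf, Nr1d1, Olfr411, Olfr938, Pdia6, Per1, Ppara, Stab1, Steap4, Syvn1 and Tacr2. Alternatives covered background, normalization, the scanner and deposited ratios, Cy5 alone, irregular and dim spots, slide, replicate number, array weights, the samples fitted and each array left out.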

Additional observations from a re-analysis of the deposited data

Results flagged for a closer look

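For 12 genes, those with the largest called differences under the rule for named genes, the effect of ethanol plus binge at 10 days differed from the effect at 8 weeks by the interaction test in limma. The difference, 10 days minus 8 weeks on the log2 scale, was positive for Hsd3b5 (4.08), Thrsp (3.87), Cyp2c70 (3.57), Slc22a7 (3.42), Srebf1 (3.37) and Selenbp2 (3.32). It was negative for Cyp4a14 (-5.29), Cyp4a31 (-3.48), Trp53inp1 (-2.35), Ddit4 (-2.07), Retreg1 (-2.06) and Cd14 (-2.04). The 10-day and 8-week arrays belong to different scans, so that diet length and scan cannot be told apart. With the slide as a block 6 of the 12 calls were lost, with adjusted p of 0.114 for Hsd3b5, 0.0829 for Thrsp, 0.0724 for Cyp2c70, 0.14 for Trp53inp1, 0.186 for Retreg1 and 0.17 for Cd14. The call of Hsd3b5 was also lost without pair-fed replicate 2 of 10 days (adjusted p = 0.0526). That of Cd14 was lost without ethanol-plus-binge replicates 1 and 3 of 10 days (0.0701 and 0.0504), without pair-fed replicates 2 and 3 of 10 days (0.0506 and 0.0733) and without pair-fed replicate 3 of 8 weeks (0.0606), and with median centring and from Cy5 alone (0.0514 and 0.0504). From the deposited ratios Selenbp2 and Retreg1 had adjusted p of 0.0605 and 0.0763, from Cy5 alone Trp53inp1 had 0.0565, and with only the groups compared Cyp2c70 had 0.0553. No other call among the 12 was lost under any alternative that gave the gene a value.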

How the results depend on the processing

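The 1132 calls at 10 days became 373 with median centring (271 higher and 102 lower), 439 from Cy5 alone, 594 with the slide as a block and 1858 with array weights. They numbered 556 to 1174 with 1 array left out, and 1067 without the co-moving probes, an alternative chosen after seeing the data. The 521 calls of the difference between diets became 162 with median centring, 195 from Cy5 alone and 187 with the slide as a block, and 322 to 653 with 1 array left out. No background correction, the scanner and deposited ratios, irregular spots kept, no filter on dim probes, the slide as a random block and only the groups compared gave 777 to 1331 calls at 10 days and 378 to 674 for the difference. The cause of these moves was not tested, and array number limits all of them.

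Same-number livers of the ethanol-plus-binge and pair-fed groups correlated at 0.281, 0.083 and 0.117 in their deviations from the group means, and ethanol-plus-binge replicate 3 followed pair-fed replicate 2 more closely (0.166), so that the numbers were not taken as pairs. The replicate block gave 1193 calls at 10 days and 497 for the difference.

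Of 140 named genes called at 10 days, 65 were called in all 6 single-array omissions and 67 lost the call in at least 1. The other 8, Abca1, Cyp1a2, Cyp2b10, Cyp2c29, Cyp3a16, Dbp, Hspa5 and Steap4, had no test in 2 to 4 of the 6 omissions, in which too few usable spots remained, and were called in the rest. Calls lost numbered 10, 51 and 36 without ethanol-plus-binge replicates 1, 2 and 3 and 40, 41 and 15 without pair-fed replicates 1, 2 and 3. The 67 were Abcb11, Acaa1a, Acaa1b, Acadvl, Acot3, Adh4, Adh7, Aldh3a2, Aldh9a1, Atf6, Axin2, Bhlhe40, Calr, Ccne2, Cd3g, Chkb, Clock, Cry1, Dcn, Dgat1, Dnajc3, Egfr, Egr1, Eif2ak3, Ern1, Ero1b, Fdft1, Fga, Fgb, Fgf21, Fgg, Foxo1, Ftl1, Got1, Gpat4, Gstm1, Il6st, Insig1, Klb, Klf10, Lect2, Lyve1, Manf, Mid1ip1, Myh1, Nkg7, Nr1d1, Orm3, Pcyt1a, Pdia6, Plin3, Plk2, Ppara, Pparg, Ppargc1a, Prdx6, Rrm2, Saa1, Saa2, Saa3, Selenbp2, Stab1, Stat3, Syvn1, Trf, Ttr and Zfp36. Of the 140 calls, 64 were lost with median centring, 58 from Cy5 alone and 48 with the slide as a block. With irregular spots kept 4 were lost in the limma fit, those of Calr (adjusted p = 0.0628), Cyp1a2 (0.126), Got1 (0.323) and Trf (0.148). In the slide-block fit replicates 1 did not enter the 10-day difference, and Got1 had no slide with usable spots of both groups. The 58 were Abcb11, Acadl, Acadvl, Adh4, Adh7, Ahsg, Aldh9a1, Atf6, Axin2, Bax, Calr, Ccne2, Cd3g, Chkb, Clec4g, Clock, Cry1, Cyp1a2, Cyp2c29, Dcn, Derl2, Dgat1, Dnajc3, Egfr, Eif2ak3, Ern1, Fgb, Fgf21, Fgg, Foxo1, Ftl1, Gpat4, Gstm1, Hadha, Hspa5, Il6st, Lect2, Lrat, Myh1, Nkg7, Nr1d1, Pcyt1a, Plin3, Plk2, Ppara, Pparg, Prdx6, Rgs5, Rrm2, Saa1, Slc11a2, Stab1, Stat3, Trf, Txnrd1, Wnt2, Zfp36 and Zmat3. The 48, with adjusted p of 0.0522 to 0.532, were Abcb11, Acaa1a, Acaa1b, Acadvl, Adh7, Aldh3a2, Atf6, Axin2, Bhlhe40, Calr, Ccne2, Chkb, Ciart, Clec4g, Clock, Cyp2c29, Cyp3a16, Dcn, Egfr, Ern1, Ero1b, Fgf21, Fgg, Foxo1, Ftl1, Got1, Gpat4, Gstm1, Il6st, Klb, Klf10, Lect2, Lrat, Mid1ip1, Myh1, Plk2, Ppara, Pparg, Ppargc1a, Prdx6, Rgs5, Stat3, Trf, Ttr, Txnrd1, Wnt2, Zfp36 and Zmat3. The 64 were Abca1, Abcb11, Acadl, Acadvl, Adh4, Adh7, Ahsg, Aldh3a2, Aldh9a1, Atf6, Axin2, Bax, Bckdha, Bhlhe40, Bst2, Calr, Ccne2, Cd3g, Chkb, Clec4g, Cyp2c29, Cyp4f14, Cyp4f15, Dcn, Dgat1, Dnajc3, Eci1, Eci2, Egfr, Ern1, Fdft1, Fga, Fgf21, Fgg, Foxo1, Ftl1, Got1, Gpat4, Gstm1, Hadha, Hspa5, Il6st, Insig1, Klb, Klf10, Lect2, Mat2a, Mid1ip1, Myh1, Nkg7, Pcyt1a, Plin3, Ppara, Pparg, Ppargc1a, Prdx6, Selenbp2, Slc11a2, Stab1, Stat3, Trf, Ttr, Txnrd1 and Zmat3.

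Counts of list members moved with these settings. Over the single-array omissions, the slide as a block, Cy5 alone and median centring, limma called 2 to 4 omega-oxidation genes (in place of 4), 1 to 3 fatty acid synthesis genes (in place of 2), 0 to 2 triglyceride assembly genes (in place of 2), 2 to 4 phospholipid genes (in place of 4), 3 to 6 metal-handling genes (in place of 6), 1 to 16 acute phase genes (in place of 12), 2 to 5 IL-6 pathway genes (in place of 5), 0 to 2 integrated stress response genes (in place of 2), 0 to 4 p53 genes (in place of 3), 2 to 5 immediate early genes (in place of 4), 5 to 7 clock genes (in place of 8), 2 to 4 fasting genes (in place of 4), 3 to 6 bile acid genes (in place of 5), 2 to 5 urea cycle genes (in place of 4), 0 to 1 complement genes (in place of 2), 0 to 3 autophagy genes (in place of 2), 0 to 3 growth hormone genes (in place of 1), 0 to 3 hepatocyte genes (in place of 3), 0 to 2 lymphocyte genes (in place of 2), 2 to 6 endothelial genes (in place of 5) and 0 to 4 stellate genes (in place of 3). In the settings that called 0 of these lists, 1 to 6 of their members had an unadjusted p under 0.05.

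Among the named genes, the sign of the 10-day difference turned under these alternatives only in genes that were not called. Acaca was -0.002 with the slide as a block. Alb was -0.12 with median centring and -0.032 with both the scanner and the deposited ratios, and Apoa1 was -0.011 with median centring. Col1a1 was -0.027 with the slide as a block and -0.083 with array weights, and Retreg1 was 0.243 and 0.08 in these. With 1 array left out, Alb ranged from -0.083 to 0.151, Cidec from -0.073 to 1.828, Col1a1 from -0.204 to 0.168, Hsd3b5 from -0.657 to 0.332, Prss2 from -0.047 to 0.132 and Retreg1 from -0.439 to 0.09.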

Other observations

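At a correlation with the Tnnt3 probe of at least 0.7, 60 of the 175 genes that were at least 2-fold higher belonged to it, and at 0.9 it held 41 of them. Of the 502 genes called higher by under 2-fold, 13 (2.59%) belonged at 0.8, and of the 14551 genes that were not called, 7 (0.0481%). The Cy3 channel of the 52 genes differed by a median of -0.03 between the groups, and their rises lay between 1.10 and 2.06 with a median of 1.60. Of 690 olfactory receptor genes tested, 2 were among the 52.

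Several liver enzymes had too few usable spots under the filter on irregular signal and gave values only with those spots kept, in the limma fit under that alternative. Cyp2b9, a cytochrome P450, then differed by 4.00 (adjusted p = 1.56e-05) between ethanol-plus-binge and pair-fed livers, and Cyp4a12a, a male-biased omega-hydroxylase, by -2.56 (adjusted p = 1.77e-06). Cth, of cysteine synthesis, differed by -1.59 (adjusted p = 0.000545), Cyp3a11, a major drug-metabolising enzyme, by -1.38 (adjusted p = 0.00613) and Cyp8b1, of cholic acid synthesis, by -1.33 (adjusted p = 0.0146).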
